A study of Rattus norvegicus with 44 samples.

Results

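The kidney cortex of rats of the genotype labelled Homo, in a study of xanthine dehydrogenase (Xdh), was compared between postnatal day (PND) 5 and PND15, in 4 libraries at each age, 8 of the 44 libraries of the study. The values are FPKM (reads per gene, scaled by gene length and library size), and a gene was included when it had an FPKM of at least 1 in 3 or more of these 8 libraries, which held for 14477 of 32545 genes. All animals were male, their whole litters were collected and genotyped, and 1 kidney of each was frozen for RNA. Wild-type (WT) animals, with 3 libraries at PND5 and 4 at PND15, and heterozygous (Het) animals, with 4 at each age, passed through the same 10 days and serve as the reference. The labels give no strain, treatment or litter for any group, and no gene or allele beside the genotype names. They do not say that replicates came from separate litters, so p-values measure the spread between these samples only. The ages are different animals, not repeated samples of one animal.

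Xanthine dehydrogenase, the product of Xdh, oxidises hypoxanthine to xanthine and xanthine to urate, the steps of purine breakdown that make urate. In the rat, nephrons are still being formed in the first days after birth, and the tubules then gain their adult transport and metabolism over the following weeks. A damaged tubular epithelium is known for a different programme: it makes the surface receptor Havcr1 (kidney injury molecule 1) and secreted proteins such as clusterin, lipocalin 2 and osteopontin, and it recruits macrophages through chemokines.

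The reads counted on genes in the 8 Homo libraries ranged from 13364867 to 19751354, and in all 23 libraries at these ages from 12751227 to 23329418. All 33 pairs of replicates within the 6 groups differed by more than counting error, with a chi-square per degree of freedom of 6.59 to 44.9 over genes, so each library was counted as 1 sample. Mitochondrial genes took 6.90% ± 0.463 of the reads in Homo at PND5 (SD, n = 4) and 6.19% ± 0.998 at PND15 (SD, n = 4), against 7.03% ± 0.897 (SD, n = 3) and 8.41% ± 0.828 (SD, n = 4) in WT. Cortex was present by its markers, since 36 of 36 entries for proximal tubule transport passed the filter. So did 17 of the 18 podocyte entries found in the table, of 20 listed. Genes of adrenal gland and skeletal muscle were near the floor, with 2 tested genes each and summed FPKM of at most 7.94 and 9.64 in the 8 libraries. This did not hold for every reference library. In PND5 Het the highest adrenal sum was 288.4 FPKM, against a median of 7.44 in that group, and its part in the comparisons with Het was not tested. Fat tissue genes varied more, with a summed FPKM of 34.6 to 192.5 at PND15. The highest sum was that of library 4, which also had the highest sum of inner medulla genes, 321.3 against a median of 151.2. Both sums lay inside the range of the PND15 WT libraries, 47.1 to 287.6 for fat tissue and 140.8 to 503.7 for inner medulla. Library 4 also stood apart from the other 3 PND15 Homo libraries in the results below. Whether other tissue in the sample had a part in this was not tested. The filter lets in genes seen at 1 age only. Of the tested genes, 274 reached 1 FPKM in no PND5 library and 246 of these rose, and 114 reached it in no PND15 library and 95 of these fell, which the filter itself favours. Low members of the lists below include such genes, which adds to the list counts of rises, and they were not counted by list. Il11 lay just inside the threshold, with a third-highest value of 1.001 FPKM over the 8 libraries, and Myb just outside it, with 0.9991.

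Xdh itself was low but present in Homo and was higher at PND15. Its FPKM was 0.79, 1.09, 0.316 and 0.473 in the 4 PND5 libraries and 6.46, 4.95, 8.03 and 2.87 in the 4 PND15 libraries. The WT values were 3.48 to 4.69 at PND5 and 14.1 to 17.8 at PND15, so the Homo libraries lay below those of WT at each age, without overlap. Between the ages Xdh rose by 1.94 ± 0.21 (log2(FPKM + 1), ± SE, adjusted p = 7.2e-07) in Homo and by 1.69 ± 0.22 (adjusted p = 1.4e-05) in WT. The difference between these changes was 0.24 ± 0.31 (adjusted p = 0.72), with no call. These adjusted p-values, like all others below unless stated, come from limma with Benjamini-Hochberg adjustment over the 14477 genes, and verbs such as rose and fell are kept for genes with an adjusted p under 0.05. All changes are PND15 minus PND5 on the log2(FPKM + 1) scale, which understates the change of low genes.

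Havcr1 and Clu mark the injured tubule, and both were far higher at PND15 than at PND5. Havcr1 was at 0.913, 0.649, 0.317 and 0.607 FPKM at PND5 and at 95.1, 37.3, 49 and 29.2 at PND15, an 84.7-fold difference of means. WT libraries stayed between 0.454 and 1.75 FPKM at both ages. Clu, the secreted chaperone clusterin, was at 57, 69.7, 44.6 and 64.1 FPKM at PND5 and at 1668, 497, 690 and 415 at PND15, while WT was at 55.8 to 61 throughout. For both genes library 1 was the highest and library 4 the lowest of the PND15 group, and the ages did not overlap. Of the 14477 tested genes, 4557 had no overlap between the ages in Homo. The Homo change exceeded the WT change by 4.46 ± 0.36 for Havcr1 (adjusted p = 7.8e-07) and by 3.57 ± 0.40 for Clu (adjusted p = 3.8e-05).

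Hnmt, histamine N-methyltransferase, belongs to the proximal tubule and rises between these ages in WT. It was at 0.414, 0.986, 0.24 and 0.236 FPKM at PND5 and at 3.68, 8.37, 4.9 and 14.3 at PND15, where WT libraries had 25, 27, 23.1 and 19.2. Here library 4 was the highest and library 1 the lowest. Hnmt rose by 2.46 ± 0.31 in Homo (adjusted p = 5.2e-06) and by 3.83 ± 0.33 in WT (adjusted p = 2.7e-07). The difference was -1.37 ± 0.45 against WT (adjusted p = 0.07, not called) and -1.98 ± 0.44 against Het (adjusted p = 0.0051). For Havcr1, Clu, Hnmt and Xdh alone, a two-sided exact permutation test of 4 against 4 Homo libraries gave p = 0.0286 each, the smallest that 70 arrangements allow, and 0.0286 after adjustment over the 4 genes. Any gene without overlap between the ages gives this p, and 4557 of the 14477 tested genes had none, so it does not set these genes apart.

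**Figure D1:**
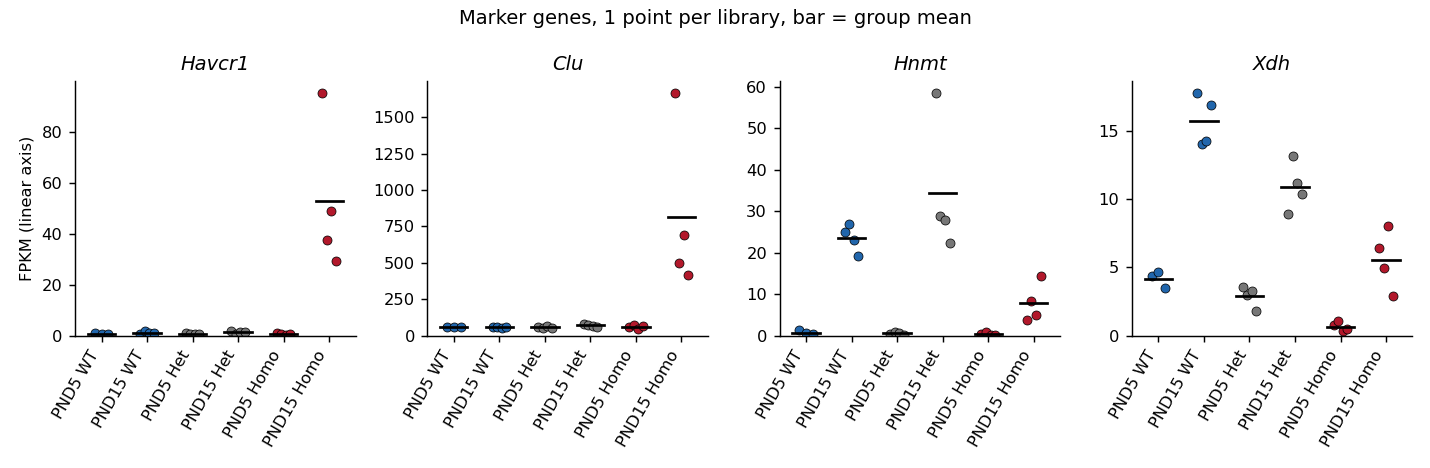
FPKM (linear axis, from 0) of Havcr1, Clu, Hnmt and Xdh in each library, with points for libraries, bars for group means, blue for WT, grey for Het and red for Homo. Havcr1 and Clu are high in the 4 PND15 Homo libraries alone, and Hnmt and Xdh are higher at PND15 than at PND5 in all 3 genotypes but lower in Homo than in WT at PND15.

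Across all genes, 2558 rose in Homo (17.7% of those tested) and 2219 fell (15.3%). In WT 2397 rose (16.6%) and 2275 fell (15.7%), and in Het 3006 rose (20.8%) and 2823 fell (19.5%). The falls were the more shared part: 1301 genes fell in both Homo and WT, 58.6% of the Homo falls and 57.2% of the WT falls. The 1104 genes that rose in both were 43.2% of the Homo rises and 46.1% of the WT rises. Only 33 genes rose in Homo and fell in WT, and 13 fell in Homo and rose in WT. Homo and WT share no library in these comparisons. Pearson r of the changes across genes, which are not independent replicates, was 0.546 between Homo and WT, 0.495 between Homo and Het, and 0.829 between Het and WT.

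Tested directly, the Homo change was higher than the WT change for 718 genes (4.96%) and lower for 414 (2.86%). Against Het it was higher for 1226 (8.47%) and lower for 1137 (7.85%). Of the 718 higher genes, 587 rose in Homo, and 506 of these were not called in WT, while 110 fell in WT and were not called in Homo. Of the 414 lower genes, 270 rose in WT without a call in Homo, 49 rose in both, and 73 fell in Homo without a call in WT. Against Het, 644 of the 718 were also higher and 350 of the 414 also lower, in tests that share the Homo libraries.

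The number of genes that differ from WT rested on single libraries more than the Homo change did. It was 1132 with all libraries, 493 without PND5 WT library 1, 559 without PND15 Homo library 3, 570 without PND15 Homo library 1, 603 without PND5 WT library 2 and 2003 without PND15 Homo library 4. It was 688 and 700 without PND5 Homo library 4 or 2, and 698 and 729 without PND15 WT library 2 or 1. The titles hold a number whose meaning is not stated and which goes with age. All PND15 libraries are numbered under 100, but at PND5 only 2 of 4 Homo, 1 of 3 WT and 1 of 4 Het libraries are. Without the PND5 libraries numbered 100 or more, most differences from WT lost their call. A part of this number in the changes between the ages was not tested and cannot be told apart from age for the libraries left out. Scaling each library to the same summed FPKM (TPM) moved the split: 841 genes were then higher and 236 lower than in WT (78.1% higher, against 63.4% on FPKM), and 1940 higher and 625 lower than in Het (75.6% against 51.9%). It also moved the share of rises from 51.3% to 34.9% of calls in WT and from 51.6% to 27.9% in Het, with medians over all genes of -0.07 and -0.14 there. The Homo change had 53.5% rises on FPKM and 53.1% on TPM.

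**Figure D2:**
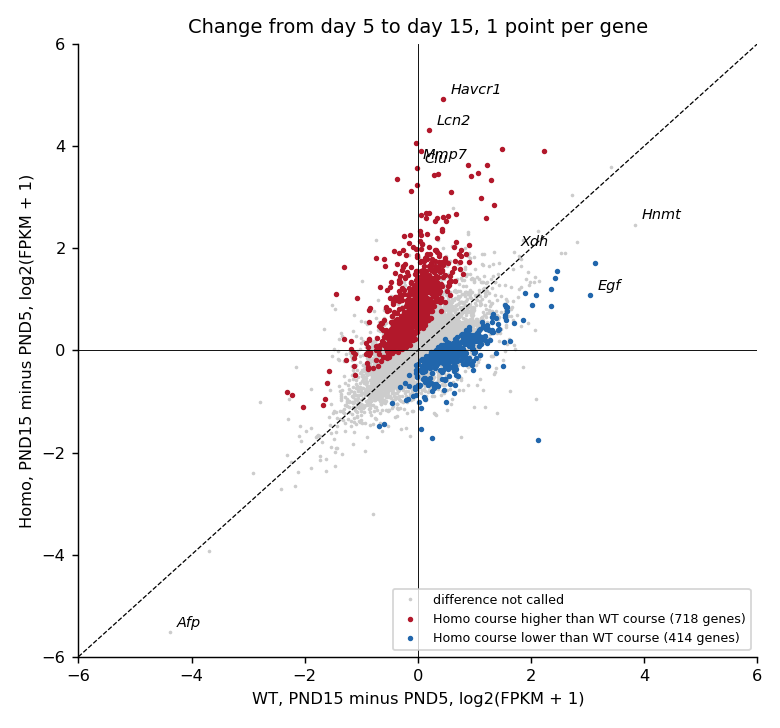
Change from PND5 to PND15 of each tested gene in WT (x axis) and Homo (y axis), both as a difference of mean log2(FPKM + 1), with the line of equal change dashed. Red points are the 718 genes with a higher change in Homo and blue points the 414 with a lower one. Havcr1, Lcn2, Mmp7 and Clu lie near 0 in WT and above 3 in Homo, and Egf has a WT change of 3.05 and a Homo change of 1.08.

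The tubular injury list had 33 tested members of 34 in the table, of which 26 rose in Homo and 1 fell, with a median change of 1.19 against -0.01 over all genes. In WT 5 rose and 3 fell, with a median of 0.06, and for 19 members the Homo change was higher than the WT change. Over all tested genes 17.7% rose and 15.3% fell in Homo, and 16.6% rose and 15.7% fell in WT. The counts of each list below stand beside these shares. Lcn2, lipocalin 2, which binds bacterial iron carriers and is a urinary marker of tubular injury, was at 5.41, 7.09, 6.99 and 4.55 FPKM at PND5 and at 196, 141, 218 and 56.4 at PND15, a 25.5-fold difference of means. Spp1, osteopontin, was already at 282 to 370 FPKM and reached 5863, 3408, 3850 and 2226. It also rose in WT, by 1.07 ± 0.20, so that the Homo excess was 2.41 ± 0.27 (adjusted p = 3.1e-05).

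Mmp7, the epithelial metalloproteinase matrilysin, was listed at 0 in 3 of the 4 PND5 libraries and at 0.0578 FPKM in the fourth, which is 1 read in all. At PND15 it was at 21.8, 18.5, 25.3 and 6.14 FPKM, and the ratio of reads has a 95% counting interval of 233 to 51500 (exact binomial, counting error only, as reads are not independent molecules). Its highest value in the 7 WT libraries was 0.229 FPKM. Sox9, a transcription factor of repairing tubule cells, rose from 0.929 to 1.62 FPKM to 2.77 to 7.73 FPKM (change 1.35 ± 0.19, adjusted p = 1.8e-05). Cd44, a hyaluronan receptor, rose by 1.88 ± 0.19. Sfn, the stress-induced 14-3-3 protein sigma, was at 12.3 to 16.4 FPKM at PND5 and at 249.7, 99.9, 104 and 102 at PND15, where WT libraries ranged from 10.7 to 30.1. Vcam1, the adhesion molecule, did not pass the test (0.21 ± 0.16, adjusted p = 0.36).

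The IL-6 and STAT3 list covers the cytokines that signal through gp130 or the IL-20 receptors, and their targets. Of its 16 tested members, 15 rose and 1 fell in Homo (median 1.40), 2 rose and 1 fell in WT (median 0.14), and for 11 the Homo change was higher. The ligands themselves appeared. Il19 had 5 reads in all PND5 libraries together and 31.3, 13.2, 22.5 and 6.08 FPKM at PND15. Il24 had 6 reads at PND5 and 16.5, 8.87, 13.9 and 5.84 FPKM at PND15. Lif, leukaemia inhibitory factor, was at 0.527 to 0.969 FPKM at PND5 and at 9.42, 4.94, 5.53 and 4.49 at PND15. The read ratio was 126 for Il19 (53.8 to 391) and 144 for Il24 (65.9 to 394), with 95% counting intervals. In each of the 3 genes the lowest PND15 library was above the highest PND5 library. A lack of overlap between the ages, in either direction, was shared by 4557 of the 14477 tested genes. Il19, Il24 and Lif were below 1 FPKM in every PND5 library and so passed the filter through PND15 alone, which favours a rise. Il6 itself was not tested, being listed at 0 in all PND5 libraries and at no more than 0.265 FPKM at PND15.

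Of the receptors, Osmr, the oncostatin M receptor, rose by 2.54 ± 0.22 (adjusted p = 8e-08) and Il6r by 1.01 ± 0.16 (adjusted p = 4.9e-05). Stat3 was at 38.8 to 48.4 FPKM at PND5 and at 112, 75.6, 90 and 68.8 at PND15, and its Homo change exceeded that of WT by 0.72 ± 0.16 (adjusted p = 0.0096). Socs3, the feedback inhibitor that STAT3 induces, was at 5.14 to 7.42 FPKM at PND5 and at 117, 59.9, 88.5 and 33.3 at PND15. Its WT libraries were at 3.26 to 8.11 FPKM over both ages, and the Homo excess was 3.72 ± 0.39 (adjusted p = 1.8e-05).

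The fibrinogen chains are acute-phase proteins made mainly in liver and, in kidney, by injured tubules. Fga was at 1.85 to 2.99 FPKM at PND5 and at 109, 47.8, 28.7 and 43.1 at PND15. Fgg was at 0.718 to 1.23 FPKM and reached 33.4, 17.8, 13 and 9.72, and Fgb rose from 6.11 to 8.61 FPKM to 18.5 to 54.5 FPKM. Only Fga also rose in WT, by 1.49 ± 0.27, and Fgb fell there by 0.74 on the log2 scale (adjusted p = 0.027). Over the liver list of secreted-protein genes, 2 of 6 tested members rose and 2 fell in Homo, and the same numbers in WT. Its summed FPKM was 174.8 to 224.3 at PND5 and 51.3 to 61.4 at PND15, but most of the PND5 sum was Afp, alpha-fetoprotein. Without Afp it was 34.6 to 39.4 at PND5 and 47.1 to 59.8 at PND15 in Homo, and 36.6 to 41.5 and 43.2 to 49.9 in WT, and its part in the fibrinogen values was not tested.

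Among transcription factors of the immediate response, 15 of 20 tested AP-1 and early genes rose in Homo, and 2 fell in WT. For 7 of them the Homo change was higher than the WT change, and for 11 without PND15 Homo library 4. Atf3, a stress-induced factor, was at 0.854 to 1.9 FPKM at PND5 and at 11.4, 8.48, 7.6 and 6.34 at PND15 (excess over WT 2.36 ± 0.32, adjusted p = 0.00027). Egr2 rose from 0.139 to 0.202 FPKM to 1.88 to 6.26 FPKM. Fos was at 1.01 to 1.86 FPKM and then at 14.1, 9.73, 11.4 and 9.22, but its excess over WT was not called (1.43 ± 0.63, adjusted p = 0.19). Of 17 NF-kB targets 14 rose and 1 fell, against 4 rises in WT. For 10 the Homo change was higher, a count of 6 without PND5 WT library 1 and of 7 on recovered reads (limma-voom). For 2 it was lower: Ptgs2, an inducible cyclooxygenase, by -1.06 ± 0.29 (adjusted p = 0.031), and Ptges, a prostaglandin E synthase, by -0.43 ± 0.10 (adjusted p = 0.017). Icam1, an adhesion molecule for leukocytes, was at 9.92 to 13.3 FPKM at PND5 and at 49.8, 33.3, 45.5 and 22.3 at PND15, and Nfkbiz, an NF-kB cofactor, rose by 1.87 ± 0.18.

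Promoters of 4 of these genes are shown because the lists they come from moved together, with the letters of 3 motifs searched in them on both strands in capitals: TGANTCA for AP-1, TTCNNNGAA for STAT and an NF-kB-like site. Each holds 250 bases before to 50 after the RefSeq start, from RefSeq on build GRCr8, 5′ to 3′ on the gene's strand. They are Havcr1 at chr10:31629528-31629827 (plus strand), Mmp7 at chr8:13132793-13133092 (plus strand), Fga at chr2:170671919-170672218 (plus strand) and Il24 at chr13:44910711-44911010 (minus strand).
Havcr1: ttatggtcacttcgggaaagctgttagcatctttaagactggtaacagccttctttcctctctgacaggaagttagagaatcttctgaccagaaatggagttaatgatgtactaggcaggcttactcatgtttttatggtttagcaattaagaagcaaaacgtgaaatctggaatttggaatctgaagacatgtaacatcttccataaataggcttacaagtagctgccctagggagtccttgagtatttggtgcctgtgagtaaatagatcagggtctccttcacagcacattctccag
Mmp7: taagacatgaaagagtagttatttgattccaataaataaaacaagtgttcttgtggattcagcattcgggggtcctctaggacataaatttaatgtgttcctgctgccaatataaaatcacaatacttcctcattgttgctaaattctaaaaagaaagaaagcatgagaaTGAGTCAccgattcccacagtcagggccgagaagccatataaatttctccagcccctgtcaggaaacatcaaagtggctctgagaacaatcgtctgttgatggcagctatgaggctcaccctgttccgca
Fga: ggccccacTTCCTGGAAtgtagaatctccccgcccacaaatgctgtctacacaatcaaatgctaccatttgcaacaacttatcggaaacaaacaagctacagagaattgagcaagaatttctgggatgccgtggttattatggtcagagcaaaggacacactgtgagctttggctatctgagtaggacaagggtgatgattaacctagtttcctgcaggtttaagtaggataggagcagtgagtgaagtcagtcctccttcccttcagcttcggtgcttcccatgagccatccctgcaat
Il24: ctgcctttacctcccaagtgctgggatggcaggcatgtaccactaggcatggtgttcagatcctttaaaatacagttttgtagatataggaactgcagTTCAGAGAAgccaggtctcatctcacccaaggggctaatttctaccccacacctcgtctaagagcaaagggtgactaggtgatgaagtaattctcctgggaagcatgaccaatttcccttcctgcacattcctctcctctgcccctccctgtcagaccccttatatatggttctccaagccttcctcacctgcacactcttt
Mmp7 held AP-1 letters at base -80 from the start, Fga STAT letters at -242 and Il24 STAT letters at -152, and Havcr1 held none of the 3 motifs in this window. The promoters of Lcn2, Hnmt and Il19 were also searched but are not shown. Lcn2 and Hnmt held none of the 3 motifs, and Il19 held STAT letters at -239. Of the 9637 tested genes with a promoter matched by symbol, 4.93% held the AP-1 letters, 6.62% the STAT letters and 5.53% the NF-kB-like letters. Among the 1837 that rose in Homo the shares were 7.62%, 7.57% and 7.19%, and among the 522 with a higher change than in WT they were 10.7%, 10.2% and 9.77%. Among the 293 with a lower change than in WT they were 5.8%, 7.51% and 3.41%, so the STAT share there was close to that of the risers. The E2F letters TTTCCCGC or TTTGGCGC, common before genes of DNA replication, were in 2.8% of all these promoters, 1.42% of those that rose and 4.84% of the 1508 that fell. Motifs of HNF1 and HNF4 (CAAAGTCCA), factors of the differentiated tubule, were in 0.239% and 0.363% of all promoters, and in 4 and 6 of these 293 (1.37% and 2.05%). These shares are a description: a match is not a binding site, and no match says only that these letters are not in the window.

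Cytokines and chemokines rose as a group, 19 of 21 tested members with 1 fall, against 4 rises and 1 fall in WT. For 12 the Homo change was higher, a count of 5 or 6 without PND5 WT library 1 or 2 and of 3 on recovered reads (limma-voom). Ccl2, which draws monocytes, was at 1.02 to 1.39 FPKM at PND5 and at 18.7, 16.8, 23.7 and 8.81 at PND15, where WT had 1.96 to 5.05. Cxcl1, which draws neutrophils, rose from 0.141 to 0.369 FPKM to 1.64 to 6.26 FPKM. Il1rn, the IL-1 receptor antagonist, was at 0.423 to 0.661 FPKM at PND5 and at 7.63, 7.37, 8.55 and 4.18 at PND15 (excess over WT 2.30 ± 0.23, adjusted p = 8.4e-06). Il1b rose by 2.02 ± 0.25 and exceeded the WT change by 1.38 ± 0.37 (adjusted p = 0.029). Tnf was not tested and was at most 0.168 FPKM in the 8 libraries.

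Genes of the inflammasome and of lytic cell death rose in 13 of 14 tested cases, and in 3 in WT. For 9 the Homo change was higher. That count moved by over 1.5 times in 7 of the 15 fits with 1 library left out, to as low as 4 without PND5 WT library 1, and was 5 on recovered reads. Casp1, the protease that matures IL-1 beta, was at 2.13 to 3.06 FPKM at PND5 and at 12.2, 12.4, 14.1 and 7.21 at PND15. WT also rose, to 4.3 to 7.06 FPKM. Gsdmd, the pore-forming gasdermin, rose from 9.7 to 10.8 FPKM to 17.1, 14, 18.2 and 10.3 (0.46 ± 0.11, adjusted p = 0.0033), with library 4 inside the PND5 range.

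Of 27 tested genes of complement and coagulation, 21 rose in Homo and 11 in WT, and for 15 the Homo change was higher, or for 9 on recovered reads. C3, the central complement protein, was at 0.353 to 0.736 FPKM at PND5 and at 9.63, 9.37, 13.4 and 3.15 at PND15, with WT at 0.538 to 1.12 then. Cfi, the protease that inactivates C3b, was at 0.344 to 0.608 FPKM and then at 21.9, 16.2, 19.7 and 6.25. C7, of the membrane attack complex, rose by 3.63 ± 0.32, from 23 to 46.5 FPKM to 554, 409, 675 and 197. C4b rose from 0.135 to 0.185 FPKM to 20.3, 14.7, 17.6 and 5.68, but C4a and C4b are near-identical and the split of their reads is uncertain.

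Markers of immune cells rose broadly. All 26 tested macrophage and dendritic cell genes of 28 in the table rose, against 1 in WT, with a median of 1.41. For 22 the Homo change was higher than that of WT, or for 15 on recovered reads. Csf1r, the macrophage growth factor receptor, was at 8.86 to 11.8 FPKM at PND5 and at 34.1, 30.9, 42.4 and 16.4 at PND15, with 9.5 to 11.9 in WT then. Lyz2, lysozyme, was at 19.7 to 31.7 FPKM and then at 247, 181, 225 and 75.3. C1qa was at 9.36 to 11.8 FPKM and then at 54.2, 47, 70.2 and 23.4, and Gpnmb, a lysosomal glycoprotein of phagocytes, exceeded its WT change by 2.50 ± 0.39 (adjusted p = 0.0011). In all 4 genes library 3 was the highest at PND15 except Lyz2, where library 1 was, and library 4 was the lowest. In bulk tissue, more cells of a type and more RNA of these genes per cell cannot be told apart.

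Lymphocyte genes rose in 12 of 13 tested cases, and the other 10 in the table did not pass the filter. Levels stayed low: Cd3e was at 0.0436 to 0.0978 FPKM at PND5 and at 1.75, 1.04, 2.67 and 0.779 at PND15, and Cd8a rose from 0.222 to 0.659 FPKM to 1.58 to 2.44 FPKM. Both genes passed the filter through PND15 alone, which favours a rise. How many lymphocyte or neutrophil genes passed in this way was not counted. For 4 the Homo change was higher than in WT, with 8 without PND15 Homo library 4 and 2 without PND5 WT library 2 or on recovered reads. Of 17 neutrophil genes only 7 passed the filter and 6 rose, among them the cytokine receptor Csf3r (1.25 ± 0.19) and S100a8 (1.52 ± 0.37, adjusted p = 0.0039). S100a8 was at 10.8, 9.78, 7.4 and 3.72 FPKM at PND15, and library 4 came close to the highest PND5 value of 3.41. The summed FPKM of neutrophil genes was 18.9 to 24.25 at PND5 and 28.15 to 57.4 at PND15. Of 26 tested genes that present antigen or respond to interferon, 21 rose in Homo and 9 in WT. B2m, the light chain of class I molecules, was at 107 to 123 FPKM and then at 299.5, 274, 281 and 208, and its excess over WT was not called (0.52 ± 0.18, adjusted p = 0.079).

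Fewer matrix genes were called. Of 31 tested matrix and fibroblast genes 10 rose (median 0.32), against 2 rises and 5 falls in WT. Col1a1, the main fibrillar collagen, was at 295 to 329 FPKM at PND5 and at 367, 280, 344 and 258 at PND15, with overlap and no call (0.01 ± 0.19, adjusted p = 0.98). Timp1, an inhibitor of metalloproteinases, rose from 35.4 to 41.3 FPKM to 154, 95.5, 106 and 64.2 while WT was at 23.3 to 34.1. Acta2, smooth muscle actin, did not pass the test in Homo (-0.40 ± 0.20, adjusted p = 0.14) but fell in WT by 1.58 on the log2 scale. Its PND15 values were 248, 164, 230 and 122 FPKM in Homo and 69.7 to 84.8 in WT, and the difference between the changes was 1.18 ± 0.30 (adjusted p = 0.021).

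Of 20 p53 and growth arrest genes 8 rose, among them Fas, a death receptor (0.95 ± 0.17), and Pmaip1, a pro-death BCL2 family member (1.75 ± 0.19). Cdkn1a, the cell cycle inhibitor p21, fell instead, from 17.2 to 20.1 FPKM to 13.9, 12.2, 10.9 and 9.73, and it fell in WT too. Of 18 genes of ER stress 5 rose in Homo and 7 in WT, and of 20 NRF2 and glutathione genes 5 rose in Homo and 7 in WT. Over all tested genes 17.7% rose in Homo and 16.6% in WT. Gclc, the catalytic subunit of the rate-limiting enzyme of glutathione synthesis, rose in WT by 1.53 ± 0.26 to 289 to 352 FPKM. In Homo it was at 94.3, 165, 80.5 and 250 FPKM at PND15 and was not called (0.16 ± 0.24, adjusted p = 0.64), with a difference of -1.37 ± 0.35 (adjusted p = 0.023). Only library 4 came near the WT range. Gpx2, an epithelial glutathione peroxidase, rose from 6.91 to 10.5 FPKM to 80.1, 39.9, 43.4 and 33.4, with an excess of 1.95 ± 0.36 over WT.

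In purine breakdown and salvage, 9 of 21 tested members rose and 1 fell in Homo, and 7 rose and 3 fell in WT. Gda, guanine deaminase, which makes xanthine, was at 0.32 to 0.842 FPKM at PND5 and at 12.7, 10.4, 14.4 and 2.68 at PND15, while WT reached 0.955 to 1.66. It was the 1 member with a higher change than in WT (2.09 ± 0.46, adjusted p = 0.01), a call that was lost on recovered reads (limma-voom, adjusted p = 0.24). Library 4 was the lowest here as well. Nt5e, the ecto-nucleotidase CD73, which makes adenosine, rose in Homo by 0.88 ± 0.12 and in WT by 1.53 ± 0.13, a difference of -0.65 ± 0.17 (adjusted p = 0.028). Urad, which decarboxylates a product of urate oxidation, was also lower (-1.16 ± 0.31, adjusted p = 0.026), and so was Entpd5 (-0.69 ± 0.19, adjusted p = 0.034). This count of 3 lower members was 0 without PND15 WT library 2, PND5 Homo library 2 or PND5 WT library 1. Aox1, an aldehyde oxidase related to Xdh, rose by 1.11 ± 0.16 in Homo and by 0.78 ± 0.17 in WT. Purine synthesis genes fell in 6 of 16 cases in both genotypes, or 3 in Homo without PND15 library 4 or PND5 library 3, and by limma 0 differed between them, with 4 at an unadjusted p under 0.05 and 0 on recovered reads (limma-voom).

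Of 21 tested genes of urate and organic anion transport, 7 rose and 2 fell in Homo and 18 rose and 1 fell in WT, with medians of 0.36 and 0.85. The 7 rises were 4 without PND15 Homo library 4 or PND5 Homo library 3. Slc22a6, the basolateral organic anion transporter OAT1, was at 109 to 157 FPKM at PND5 and at 108, 173, 126 and 188 at PND15 in Homo, while WT went from 118 to 130 FPKM to 217 to 284. Slc22a12, the apical urate transporter URAT1, rose in both, to 53.5, 81.3, 56.5 and 92 FPKM in Homo and 107 to 149 in WT. The difference was -0.85 ± 0.23 for Slc22a6 (adjusted p = 0.029) and -0.89 ± 0.23 for Slc22a12 (adjusted p = 0.025). The largest differences of the list were those of Slc22a13 and Slco1a6, at -1.45 ± 0.29 (adjusted p = 0.0062) and -1.47 ± 0.38, though close Slco1a paralogs may share reads. Slc2a9, the basolateral urate carrier, rose by 0.56 ± 0.10 in Homo and 0.48 ± 0.11 in WT, and the difference was not called, at 0.09 ± 0.15 (adjusted p = 0.81). The 7 lower members ranged from 1 to 10 in the 15 fits with 1 library left out, and the count was 1 without PND15 Homo library 1, PND15 WT library 2 or PND5 WT library 1 or 2.

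The proximal tubule reabsorbs most of the filtrate. Of 36 tested genes of its transport and endocytosis, 31 rose in WT (median 0.85), and 16 rose and 4 fell in Homo (median 0.27), or 2 fell without PND15 Homo library 1 or 3. Slc34a1, the phosphate carrier, was at 516 to 752 FPKM at PND5 and at 618, 976, 746 and 1164 at PND15 in Homo, with 1362 to 1668 in WT then. Lrp2, the endocytic receptor megalin, was at 84.8 to 159 FPKM and then at 144, 158, 134 and 184, with no call (0.22 ± 0.16, adjusted p = 0.34), while WT reached 209 to 250. Slc5a12, a lactate carrier, rose in both, by 1.40 ± 0.16 and 1.91 ± 0.18. Mep1a, a brush border meprin subunit, fell in Homo by 0.55 on the log2 scale (adjusted p = 0.012) and rose in WT by 0.48 ± 0.18 (adjusted p = 0.041), and the difference of -1.04 ± 0.24 was called (adjusted p = 0.014). Mep1b, the other subunit, was at 10.2, 24.6, 12 and 37.1 FPKM in Homo at PND15 and 42 to 60.3 in WT. The number of members with a lower change, 9, moved by over 1.5 times in 12 of the 15 fits with 1 library left out, from 1 to 19.

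Of 39 tested metabolic genes 30 rose in WT and 9 in Homo, where 3 fell, and for 16 the Homo change was lower, 4 to 24 with 1 library left out. The 3 falls were 0 without PND15 Homo library 1 and 1 without PND15 Homo library 3 or PND5 Homo library 2 or 4. Of 32 genes of fatty acid oxidation and peroxisomes 28 rose in WT (median 0.50) and 6 in Homo, where 3 fell (median 0.02). Over all tested genes 17.7% rose and 15.3% fell in Homo. The 6 rises were 3 without PND15 Homo library 4 or PND5 Homo library 1 or 3, and the 3 falls were 1 without PND15 Homo library 1 or 3 or PND5 Homo library 2 or 4. For 13 the Homo change was lower, 2 to 20 with 1 library left out, the lowest without PND5 WT library 1 and the highest without PND15 Homo library 4. Acadm, medium-chain acyl-CoA dehydrogenase, was at 104 to 122 FPKM at PND5 and at 101, 120, 99 and 144 at PND15 in Homo, against 168 to 193 in WT (difference -0.66 ± 0.15, adjusted p = 0.013). Ehhadh, a peroxisomal enzyme, was at 18.5, 30.3, 22.1 and 38.8 FPKM in Homo and 58 to 80.2 in WT. Libraries 1 and 3 were the lowest and library 4 the highest in both genes. Fbp1 and Miox, of gluconeogenesis and inositol breakdown, fell in Homo by 0.43 and 0.66 on the log2 scale (adjusted p = 0.023 and 0.011). Cyp4a8 was the member with a higher change, 1.92 ± 0.41, although close Cyp4a paralogs may share reads.

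Of 30 genes of oxidative phosphorylation 0 rose and 0 fell in Homo by limma, with a median of -0.14, and 6 rose in WT. The difference from WT was called for 1 gene, Atp5a1 (-0.47 ± 0.14, adjusted p = 0.046), and the difference from Het for 22, all lower. In Homo 3 fell at an unadjusted p under 0.05, and 1 fell on the recovered reads (limma-voom). The count against Het ranged down to 10 without PND15 Homo library 1, and the count against WT up to 13 with array weights. Atp5a1, the alpha subunit of ATP synthase, was at 935.5 to 1097 FPKM at PND5 and at 799.6, 967, 776 and 1008 at PND15 in Homo, so the ages overlapped.

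Along the distal nephron, in the thick ascending limb 5 of 22 tested genes rose and 5 fell in Homo, and 10 rose and 2 fell in WT. Over all tested genes 17.7% rose and 15.3% fell in Homo. The 5 rises were 3 without PND15 Homo library 1 or PND5 Homo library 1, 3 or 4, and the 5 falls were 3 without PND15 Homo library 1. Umod, uromodulin, rose in both, from 357 to 518 FPKM to 650.1, 988, 836 and 872 in Homo. Egf, the growth factor made in this segment, had the largest lower difference from WT among the genes named here, -1.97 ± 0.44 (adjusted p = 0.011). It was at 7.4, 13.8, 11.4 and 21.6 FPKM in Homo at PND15 and at 25.8 to 52.3 in WT, from 3.98 to 7.25 and 2.93 to 5.22 FPKM at PND5. Slc12a1, the sodium-potassium-chloride carrier, was not called in Homo (-0.10 ± 0.10, adjusted p = 0.45) and rose in WT by 0.41 ± 0.11. In the distal convoluted and connecting tubule 3 of 15 tested genes rose and 5 fell in Homo, and 3 rose and 0 fell in WT by limma. For 1 the Homo change was lower than the WT change. Slc12a3, the thiazide-sensitive carrier, fell in Homo by 0.49 on the log2 scale (adjusted p = 0.047), with PND15 library 1 at 26.1 FPKM and the next at 50.6. Trpv5, a calcium channel, rose from 1.7 to 4.15 FPKM to 17.5, 8.41, 9.37 and 6.65.

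In the collecting duct 5 of 16 tested principal cell genes fell and 1 rose in Homo, and 5 rose in WT. Without PND15 Homo library 4, 8 fell. Scnn1g, a subunit of the epithelial sodium channel, was at 19.7 to 21.4 FPKM at PND5 and at 11, 12.7, 11.1 and 15.5 at PND15, where WT had 20.7 to 24.4, a difference of -0.94 ± 0.14 (adjusted p = 0.00047). Aqp2, the vasopressin-regulated water channel, was not called (-0.87 ± 0.38, adjusted p = 0.085). Of 16 intercalated cell genes 12 rose in WT and 3 in Homo, where 5 fell. Rhbg, an ammonia transporter, fell in Homo to 15.2, 18.6, 15.6 and 27.3 FPKM and rose in WT to 34.4 to 42, a difference of -1.05 ± 0.19 (adjusted p = 0.0027). Slc26a4, pendrin, rose in both. The 3 rises of intercalated cell genes were 5 without PND15 Homo library 1, the 5 falls were 3 without PND15 Homo library 1 or 3 or PND5 Homo library 1, 2 or 4, and the 7 members with a lower change than in WT ranged from 2 to 8.

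**Figure D3:**
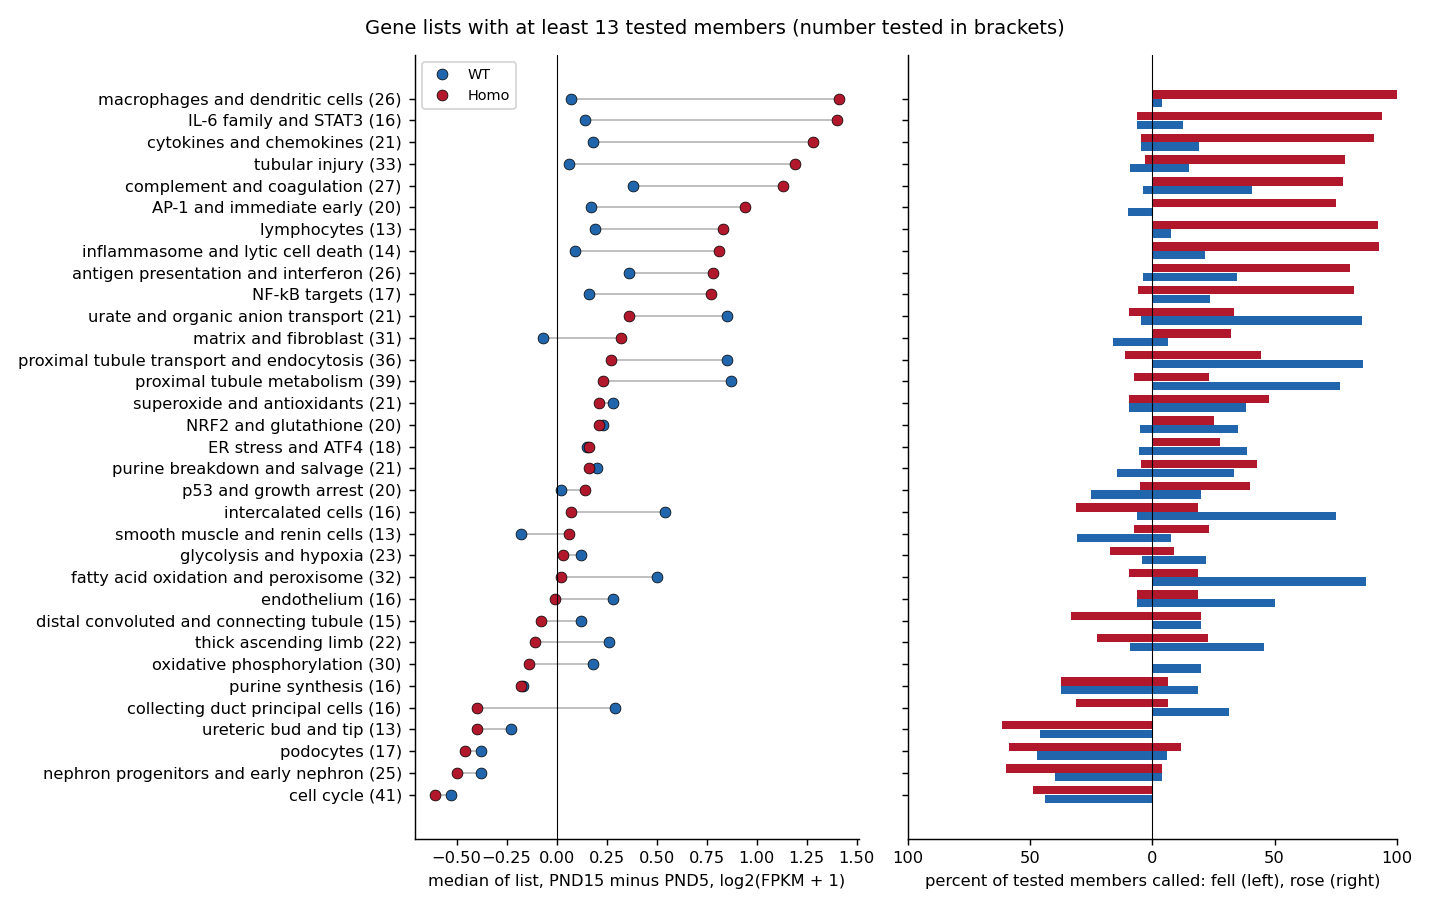
Gene lists with at least 13 tested members, ordered by the Homo median. Left, the median change from PND5 to PND15 (log2(FPKM + 1)) in Homo (red) and WT (blue), and right, the percent of tested members that fell (to the left) or rose (to the right). Immune and injury lists lie further to the right in Homo, tubule lists further in WT, and the lists of progenitors, ureteric bud, podocytes and cell cycle lie close together in both.

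More genes of nephron formation fell than rose in both genotypes. Of 25 tested genes of nephron progenitors and early nephrons 15 fell and 1 rose in Homo (median -0.50), and 10 fell and 1 rose in WT (median -0.38). Cited1, a marker of the cap mesenchyme, fell from 3.66 to 5.66 FPKM to 1.04, 1.32, 0.944 and 1.65. Gdnf, the signal that drives ureteric branching, fell from 2.05 to 4.13 FPKM to 0.0834 to 0.306 FPKM. Wnt11, made at ureteric tips, fell from 32.6 to 38.3 FPKM to 4.88, 8.68, 5.73 and 6.96, and in WT to 10.3 to 11.4. Podocyte genes fell in 10 of 17 cases in Homo and 8 in WT, with median log2 changes over the list of -0.46 and -0.38.

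Of 41 tested cell cycle genes 20 fell in Homo and 18 in WT, and with array weights 37 fell in Homo, and 35 in WT when the WT libraries were fitted alone. At an unadjusted p under 0.05 by limma, 32 were lower at PND15 in Homo and 25 in WT. In Homo 36 of the 41 had no overlap between the ages, against 4557 of the 14477 tested genes. By limma 0 rose in either, at an unadjusted p under 0.05 or on recovered reads too. The medians were -0.61 and -0.53. Mcm6, of the replicative helicase, was at 35.3 to 37.9 FPKM and then at 23.4, 21.8, 20 and 22.2, and its difference from WT was -0.08 ± 0.18 (adjusted p = 0.87). Tyms, thymidylate synthase, was the 1 member whose change differed, being lower in Homo by 0.40 on the log2 scale (-0.40 ± 0.12, adjusted p = 0.039). Mki67 was at 15 to 19.3 FPKM and then at 11 to 12.1, without overlap, yet it did not pass the test (-0.55 ± 0.29, adjusted p = 0.16).

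The largest falls were called in WT as well. Afp, alpha-fetoprotein, a fetal plasma protein, went from 139, 174, 140 and 188 FPKM to 1.64, 1.89, 2.8 and 4.2 in Homo and to 4.39 to 7.15 in WT. Clec18a, a lectin, fell by 3.93 on the log2 scale, Il13ra2, the decoy receptor of IL-13, by 2.71, Tnnt2, cardiac troponin T, by 2.41 and Agtr2, the fetal type of angiotensin receptor, by 2.29. For these 5 the difference from the WT change was not called, with adjusted p-values of 0.17 to 0.73.

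The extent of the normal 10-day change in Homo was read from genes chosen on the 8 Het libraries alone, by a call and a change of at least 1. They were 346 risers and 246 fallers, of which 335 and 240 were tested here. PND15 Het library 2 stood apart from its group. Its pairs had a chi-square per degree of freedom of 36.6 to 44.9 over genes, against 8.84 to 17.8 for the other PND15 Het pairs. The choice of genes was not repeated without that library, or without the PND5 Het library with a high adrenal sum. Risers changed by a median of 0.52 in Homo and 1.07 in WT, with 184 called as rises in Homo and 305 in WT, and the Homo change was below the WT change for 280 of 335. Fallers changed by a median of -0.86 in Homo and -1.04 in WT, with 172 and 204 falls. The difference from WT was called lower for 89 risers and higher for 27 fallers, and higher for 12 risers. With a minimum of 2 in place of 1, the 29 risers changed by 1.19 in Homo and 2.02 in WT, and the 22 fallers by -1.92 and -2.09.

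A score per library, the mean log2(FPKM + 1) of the risers minus that of the fallers, was 0.196, 0.365, -0.155 and 0.101 in Homo at PND5, and 0.167, 0.182 and -0.042 in WT. At PND15 it was 1.341, 1.735, 1.400 and 2.012 in Homo and 2.363, 2.394, 2.243 and 2.164 in WT. The groups overlapped at PND5, and at PND15 all 4 Homo libraries lay below all 4 WT libraries.

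**Figure D4:**
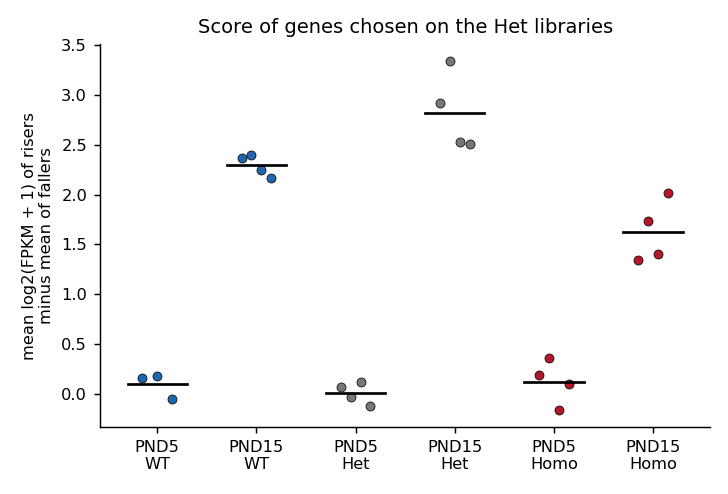
Score of each library (mean log2(FPKM + 1) of the 335 risers minus that of the 240 fallers chosen on the Het libraries), with points for libraries and bars for group means. The genes were chosen on the Het libraries, which the choice places high at PND15. Homo and WT overlap at PND5, and at PND15 Homo lies at 1.341 to 2.012 and WT at 2.164 to 2.394.

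The 4 PND15 Homo libraries were not alike. Library 4 was the lowest in 26 of 26 macrophage genes that rose, 21 of 26 injury genes that rose and 18 of 19 cytokine genes that rose. It was the highest in 28 of 36 genes of proximal transport, 32 of 39 of proximal metabolism, 30 of 32 of fatty acid oxidation and 16 of 16 of intercalated cells. Library 1 was the highest in 21 of the 26 risen injury genes, and library 3 in 22 of the 26 macrophage genes and 11 of the 12 risen lymphocyte genes. In fatty acid oxidation library 1 was the lowest for 15 genes and library 3 for 17. The mean change of the injury list was 1.86, 1.33, 1.47 and 1.08 in libraries 1 to 4, against 0.05 to 0.31 in WT, and that of the macrophage list 1.66, 1.52, 1.89 and 0.67, against 0.03 to 0.11. For proximal metabolism it was 0.00, 0.41, 0.01 and 0.51, against 0.67 to 0.96 in WT. Thus every Homo library lay outside the WT range in all 3 lists, and library 4 lay nearest to it.

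Calls for single genes were checked with each library left out. Of the 82 genes named here that were called in Homo, 75 kept the call in all 8 fits. The 7 that lost it were Slc34a1, Slc22a12 and Entpd5 (without PND15 Homo library 2 or 4 or PND5 Homo library 3, and Slc34a1 also without PND5 Homo library 1 or 4), Mep1a and Miox (without PND15 Homo library 1, and Mep1a also without library 3), Fbp1 (without PND15 Homo library 1 or 3 or PND5 Homo library 2 or 4) and Slc12a3 (without PND15 Homo library 1 or PND5 Homo library 1, 2 or 4). Of the 72 called differences from WT, 49 held in all 15 fits, among them Havcr1, Clu, Lcn2, Socs3, Csf1r, Egf, Scnn1g, Rhbg and Acadm. Of the 23 others, Casp1, Fbp1, Mep1b and Pmaip1 lost the call only without PND5 WT library 1, and Gclc without that or PND15 Homo library 1. Ptges lost it without PND5 WT library 1 or 2, and Acta2 without PND5 WT library 1 or PND15 Homo library 1 or 3. Urad lost it in 4 fits, Slco1a6 in 5, Nt5e and Slc22a12 in 6, and Slc34a1 in 7. Il1b, Slc22a6 and Tyms lost it in 8 fits, Ehhadh, Miox and Slc12a1 in 9, Atp5a1, Entpd5 and Ptgs2 in 10, C4a in 11, and S100a8 in 12. All of these lost it without PND5 WT library 1. On recovered reads (limma-voom) 58 of the 72 differences from WT kept the call. The 14 that lost it were Mmp7, Il19, C3, C4a, C4b, Cfi, Ccl2, Cxcl1, Il1b, Casp1, Csf3r, S100a8, Pmaip1 and Gda, with adjusted p-values from 0.055 to 0.46, and all 82 changes in Homo kept it. Counts of called members in WT also moved by over 1.5 times with 1 WT library left out: at the lowest, the 4 NF-kB rises were 1 and the 6 rises of oxidative phosphorylation 2 without PND5 WT library 1, the 5 matrix falls were 2 without PND5 WT library 2, the 9 antigen presentation rises were 5 and the 18 cell cycle falls 10 without PND5 WT library 3, and the 12 intercalated cell rises were 7 without PND15 WT library 2.

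**Figure D5:**
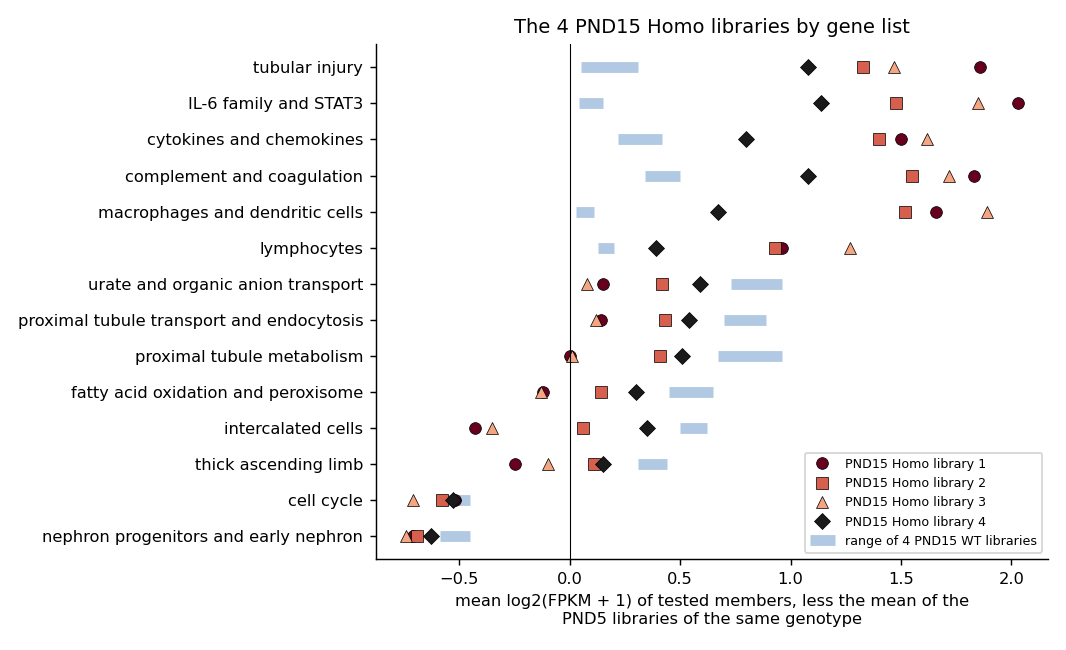
Mean log2(FPKM + 1) of the tested members of 14 lists in each PND15 library, less the mean of the PND5 libraries of the same genotype, with symbols for the 4 Homo libraries and a blue bar for the range of the 4 WT libraries. Library 4 lies nearest to the WT range in the injury, immune and tubule lists, while for cell cycle genes all 4 lie between -0.71 and -0.52.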

How the data were processed

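RNA of kidney cortex was sequenced after poly-T selection, per the labels' protocols, which do not state whether these libraries kept strand. Tools listed in the submitters' processing notes are featureCounts 1.5.0-p3, StringTie 1.3.3b, HISAT2 2.0.5 and fastp, with no genome build named. The deposited values are FPKM per gene for 44 libraries, computed by the authors. Their steps within a gene were whole reads (100% of values within 0.01 of a whole read), which gave the read totals.

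Values were tested as log2(FPKM + 1), a pseudocount of 1, with limma 3.58.1 in R 4.3.3 (6 group means over 23 libraries, robust trended variance), adjusted by Benjamini-Hochberg over 14477 genes, after tests on simulated data. Alternatives were other pseudocounts, filters and scalings, array weights, limma-voom on recovered reads, and each library left out. Members and gene lists were chosen with earlier results of these data known. Genes named are Havcr1, Clu, Hnmt and Xdh, the 10 largest called changes per direction in Homo and against WT and 5 against Het (mean of at least 5 FPKM), and up to 4 called members of each list by p, with some left out. The 10 per direction in Homo were taken only from genes without overlap between the 4 PND5 and 4 PND15 libraries. Lack of overlap in genes so taken was set by the choice. Sox9, Cd44, Vcam1, Il6, Osmr, Il6r, Stat3, Fos, Tnf, C3, Csf1r, Col1a1, Timp1, Cdkn1a, Lrp2, Ehhadh, Fbp1, Miox, Slc12a1, Slc12a3, Aqp2, Ptges, Ptgs2 and Mki67 fall outside that rule and were chosen after their values were seen. Where a symbol had more than 1 entry, the one with the higher mean was used. A small number of results were left out of the text.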

Additional observations from a re-analysis of the deposited data

Results flagged for a closer look

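Among called genes with a symbol and a mean of at least 5 FPKM, the change between the ages differed most from WT upward in 10, tested as a difference of changes on the log2 scale: Havcr1 by 4.46, Lcn2 by 4.11, Mmp7 by 4.11, Il19 by 3.85, Socs3 by 3.72, Clu by 3.57, Fgg by 3.25, Sfn by 3.24, Il24 by 3.13 and Ifitm10 by 3.10. Large lower differences among these were Egf at -1.97, Klk1c9 at -1.60, Mep1b at -1.55, Sbspon at -1.52, Slco1a6 at -1.47, Slc22a13 at -1.45, Aadac at -1.37, Gclc at -1.37 and Slc4a1 at -1.33. Klk1c9 and Slco1a6 have close paralogs that may share reads.

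In 9 of 199 groups of 4 Homo libraries examined over 100 genes (4.52%), 1 library lay apart from the other 3, its gap to the nearest being over 0.829 of the group's range. Chance alone gives about 1 in 20 such groups. At PND15 library 1 was the high one for Sfn (250 FPKM, next 104) and Fgb (54.5, next 23) and the low one for Slc12a3 (26.1, next 50.6), and library 3 was high for Tnnt2 (3.02, next 1.47). At PND5 library 2 was high for Socs3 (7.42 FPKM) and Acta2 (266) and low for Sox9 (0.929), library 3 was low for Gclc (103), and library 4 was high for Mmp7 (0.0578, the others at 0).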

How the results depend on the processing

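The number of genes called in Homo, 4777, stayed within 1.5 times under all alternatives run, between 3497 and 5569. Without the PND5 animals numbered 100 or more, which leaves 1 PND5 library in WT, 1 in Het and 2 in Homo, each lone library assumed to vary like the others, 2058 genes were called in WT, 2494 in Het, 1 for Homo against WT and 5 for Homo against Het. With array weights 2187 genes differed from WT. With 1 library left out, the count against WT ranged from 493 to 2003 and the count against Het from 1571 to 3016. On recovered reads (limma-voom) 4752 genes were called in Homo and 887 against WT. With a minimum change of 2 for the genes chosen on Het, the risers' median was 1.19 in Homo and 2.02 in WT, and the fallers' -1.92 and -2.09. The cause was not tested. None of the 202 single-gene changes in Homo or the 142 differences from WT that were recomputed changed sign. The balance of calls did turn: on TPM to 1623 higher and 3027 lower in WT and 1766 and 4553 in Het, without a filter to 2252 and 2258 in WT, and against Het to 821 and 1047 with a mean of at least 5 FPKM, 1126 and 1130 without PND15 Homo library 2, and 1159 and 1183 without PND5 Homo library 3. No paired analysis was possible because the labels number no replicates, and numbers here follow sample order. Depth of 12751227 to 23329418 reads per library limits genes with few reads, such as Mmp7 at PND5.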
